A study of Mus musculus with 8 samples.

Results

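The enzymes that make serine, pass its carbon into the folate cycle and make proline were followed in mouse heart ventricles. They are encoded by 10 genes, which were picked by symbol: Phgdh, Psat1, Psph, Shmt1, Shmt2, Mthfd1, Mthfd1l, Mthfd2, Aldh1l2 and Pycr1. All 10 were listed once with numbers in every library, among 23534 rows of the deposited table. Poly(A) RNA came from 4 samples with a cardiac knockout of Med1 and 4 WT samples with floxed Med1, all from C57BL/6 ventricles at postnatal day 21. The sources used here name neither the promoter that drove the deletion nor whether a sample was 1 animal, so p-values may measure a spread that is partly technical. Med1 is a subunit of Mediator, which links transcription factors to RNA polymerase II, and the comparison asks which ventricular transcripts differ after its deletion in the heart. Values are FPKM, that is, sequenced fragments corrected for transcript length and library size, so that levels can be set side by side between genes.

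Serine is made from a glycolytic intermediate in a chain of reactions run by the products of Phgdh, Psat1 and Psph. Serine hydroxymethyltransferases then split it into glycine and a one-carbon unit held on folate, which is used for purines, thymidylate and methionine. Parallel sets of folate enzymes work in the cytosol and in mitochondria. In many cell types the transcription factor ATF4 raises several of these genes when amino acids are short or mitochondria are stressed. Proline, the product of Pycr1, is a main building block of collagen.

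Med1 itself was 7.80, 8.37, 7.89 and 9.15 FPKM in knockout libraries 1 to 4 and 15.5, 16.1, 10.6 and 16.8 FPKM in WT libraries 1 to 4. The groups did not overlap, and the knockout mean was 56.3% of the WT mean (exact two-sided permutation p = 0.0286, the smallest that 70 assignments allow). The Med1 transcript was thus reduced in these ventricles and not absent. Library totals ran from 481650 to 502549 FPKM in knockout and from 507458 to 536146 FPKM in WT. The absolute number of fragments is unknown. Genes with a few fragments gave relative depths of 1 to 1.1 in the knockout libraries and 0.97 to 1.09 in the WT libraries, with knockout 1 set at 1. Limma on log2(FPKM + 1) called 5371 genes higher and 1964 lower in knockout among 11974 with a mean of at least 1 FPKM, at an adjusted p under 0.05. The median gene was itself 0.25 higher in knockout on the log2 scale, and 0.01 higher after median-of-ratios rescaling, which gave 3236 genes higher and 3223 lower. Cardiomyocyte markers summed to between 20867 and 28052 FPKM in knockout and between 50166 and 56881 FPKM in WT. Of these 10 markers 8 fell and 2 rose: Actn2 averaged 864 FPKM in knockout and 563.6 FPKM in WT, and Tnnc1 5107 FPKM in knockout and 3837 FPKM in WT, although Tnnc1 did not pass after rescaling (limma adjusted p = 0.538). The 8 fibroblast markers summed to between 1112 and 1819 FPKM in knockout and between 520.5 and 610.9 FPKM in WT. Of these 8, 6 were called higher and 0 lower (4 and 1 after rescaling), where 44.9% and 16.4% of all genes were. Postn alone averaged 507 FPKM in knockout and 29.0 FPKM in WT. Lum was not called (limma adjusted p = 0.342), and Fap averaged 2.21 FPKM in knockout and 2.69 FPKM in WT. In such bulk tissue, fewer cells of a type and less RNA per cell cannot be told apart. Knockout 4 stood apart on some atrial genes. It had 726 FPKM of Myl7, 781 FPKM of Myl4 and 66.0 FPKM of Bmp10, while the other knockout libraries had 2.50 to 61.6, 19.1 to 81.7 and 0 to 6.21 FPKM and WT libraries at most 0.680, 6.34 and 0 FPKM. Nppa, the atrial natriuretic peptide gene of the same list, did not single it out, with 7296, 7829, 5018 and 5760 FPKM in knockout libraries 1 to 4 and 213.8, 187.6, 278.8 and 371.6 FPKM in WT libraries 1 to 4. Results that rest on this library are therefore given without it as well.

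Promoter sequences are shown for Psat1, Mthfd2, Phgdh and Pycr1, of which the first 3 were called higher in knockout and Pycr1 had every knockout library above every WT library. Each runs from 250 bases before to 50 after the start of the RefSeq gene (GRCm38.p6, the build called mm10), 5′ to 3′ on the strand of the gene. Capitals mark matches, on either strand, to a CCAAT box (CCAAT), an E-box (CACGTG) or the C/EBP-ATF response element (TGATGNAA), the motif bound by ATF4 with its partners.
Psat1, chr19:15925010-15925309 (minus strand): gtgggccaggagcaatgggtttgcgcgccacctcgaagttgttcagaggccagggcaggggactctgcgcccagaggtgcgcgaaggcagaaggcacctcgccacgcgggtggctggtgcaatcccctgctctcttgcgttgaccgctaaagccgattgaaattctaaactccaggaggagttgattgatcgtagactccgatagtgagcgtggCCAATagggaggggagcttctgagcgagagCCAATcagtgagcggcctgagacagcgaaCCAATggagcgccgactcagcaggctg
Mthfd2, chr6:83317555-83317854 (minus strand): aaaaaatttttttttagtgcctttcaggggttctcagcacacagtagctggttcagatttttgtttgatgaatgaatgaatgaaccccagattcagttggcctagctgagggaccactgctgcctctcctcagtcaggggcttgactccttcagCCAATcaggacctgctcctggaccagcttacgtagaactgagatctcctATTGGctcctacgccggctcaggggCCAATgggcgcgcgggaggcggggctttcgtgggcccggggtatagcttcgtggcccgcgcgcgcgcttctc
Phgdh, chr3:98339920-98340219 (minus strand): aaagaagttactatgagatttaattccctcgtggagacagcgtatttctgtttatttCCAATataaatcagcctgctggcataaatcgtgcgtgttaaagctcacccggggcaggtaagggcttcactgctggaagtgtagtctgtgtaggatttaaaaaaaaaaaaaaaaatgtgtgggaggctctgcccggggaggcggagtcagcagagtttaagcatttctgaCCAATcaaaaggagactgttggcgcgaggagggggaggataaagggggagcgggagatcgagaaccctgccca
Pycr1, chr11:120643699-120643998 (minus strand): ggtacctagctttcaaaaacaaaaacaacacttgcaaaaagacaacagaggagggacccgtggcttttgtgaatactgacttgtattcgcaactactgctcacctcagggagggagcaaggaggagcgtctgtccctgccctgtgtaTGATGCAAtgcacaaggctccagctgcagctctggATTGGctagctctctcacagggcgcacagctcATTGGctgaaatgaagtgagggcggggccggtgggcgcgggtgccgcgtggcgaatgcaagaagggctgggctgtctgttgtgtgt

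Of the 10 genes, 9 had a promoter in the RefSeq table, with 10 windows in all, since Psat1 has a second start 437 bases from the deposited one. The C/EBP-ATF element was matched in 1 of the 10 windows, that of Pycr1, where it began 103 bases before the start, and 3.97% of all 32851 promoters in the table held it. CCAAT boxes were matched in 7 of the 10 windows, each of another gene, and in 37.4% of all promoters. The Psat1 window shown had 3 of them and so did that of Mthfd2, while Phgdh and Pycr1 had 2 each. The second Psat1 window had no match to any of the motifs. Shmt2 and Mthfd1l, neither of which was called with values as deposited, had no match to any of the motifs. No E-box was matched in the 10 windows, against 7.15% of all promoters. The motifs do not overlap one another in these windows. The Pycr1 start in the table lies 78 bases from the end of the deposited locus, and the starts of the Psat1, Mthfd2 and Phgdh windows shown coincide with theirs. A match is a string of letters in this window and was not tested for binding.

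Among the 9 genes past the expression minimum, Mthfd2, Psat1 and Phgdh were called higher in knockout and Aldh1l2 lower, and 5 were not called. Over all genes tested, 44.9% were called higher, 16.4% lower and 61.3% in either direction, so the share called among these enzymes was no larger than that of the transcriptome. Their median log2 change was 0.15, against 0.25 for all genes. What set single enzymes apart was the size and direction of the change. The log2 change of Mthfd2 exceeded that of 93.2% of tested genes and that of Psat1 exceeded 90.8%, while only 3.70% of genes had a change below that of Aldh1l2. After rescaling, 2 were called higher and 3 lower, where 27% of all genes were higher, 26.9% lower and 53.9% either. Quantile normalization also gave 2 higher and 3 lower, against 28.7%, 25.6% and 54.3% of all genes. Of all 10 genes, Psat1, Mthfd2 and Pycr1 had every knockout library above every WT library and Aldh1l2 every one below, 4 in all; of the genes tested, 41.7% lay wholly above, 15.3% wholly below and 57% did not overlap. Several markers of cardiomyocytes, fibroblasts and atrial cells differed between the same groups, and their part in these calls was not tested. Pycr1 missed the minimum and is described after the folate genes.

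**Figure D1:**
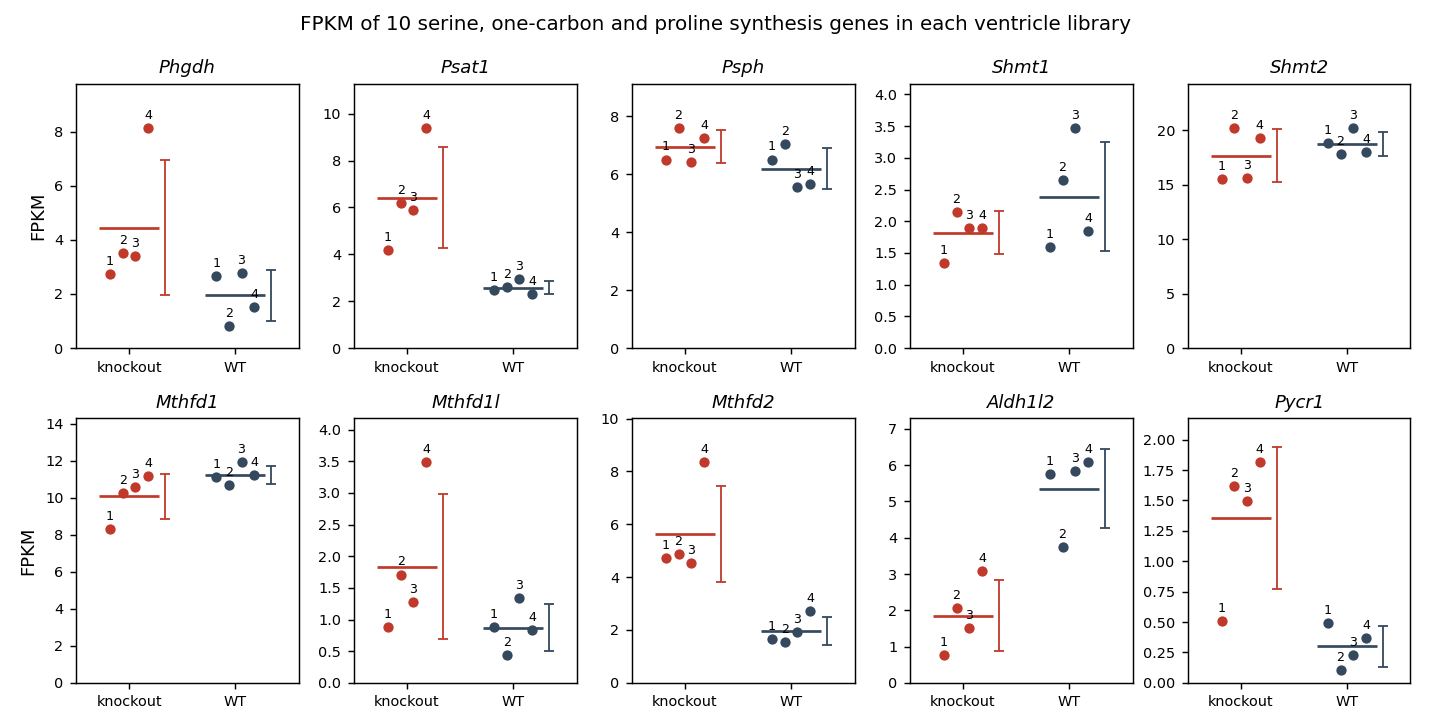
FPKM (y axis, linear, from 0) of each of the 10 genes in the 4 knockout libraries and the 4 WT libraries; points are libraries with their replicate number, lines are means and bars are SD. Psat1, Mthfd2 and Pycr1 lie higher and Aldh1l2 lower in every knockout library than in any WT library, and knockout 4 is the highest of its group for Phgdh, Psat1, Mthfd1l and Mthfd2.

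The first committed enzyme of serine synthesis, phosphoglycerate dehydrogenase, is encoded by Phgdh (chromosome 3, 98313171 to 98339969). It had 2.73, 3.50, 3.42 and 8.14 FPKM in knockout libraries 1 to 4, and 2.66, 0.825, 2.79 and 1.53 FPKM in WT libraries 1 to 4. Knockout 4 was far above its group, and knockout 1 lay between the WT libraries. The log2 change was 0.85 ± 0.32 (SE, limma adjusted p = 0.0405). Without knockout 4 it was 0.57 and no longer passed (adjusted p = 0.0775), and leaving out knockout 2, knockout 3, WT 2 or WT 4 instead also ended the call (adjusted p from 0.0547 to 0.103). After rescaling the change was 0.65 (adjusted p = 0.108). The higher Phgdh level is therefore uncertain at this number of libraries. GENCODE M21 lists 1 pseudogene named after Phgdh, with which reads could be shared.

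Psat1 encodes phosphoserine aminotransferase, the next enzyme of the chain, which takes nitrogen from glutamate (chromosome 19, 15905123 to 15925059, minus strand). The gene had 4.20, 6.20, 5.88 and 9.40 FPKM in knockout libraries 1 to 4 and 2.48, 2.60, 2.93 and 2.32 FPKM in WT libraries 1 to 4. Every knockout library was above every WT library, and the WT values were tightly grouped. Means were 6.42 ± 2.17 FPKM in knockout and 2.58 ± 0.259 FPKM in WT (SD, n = 4 each), a ratio of 2.49. The log2 change was 1.01 ± 0.18 (SE, limma adjusted p = 0.00111), and 0.79 after rescaling (adjusted p = 0.00506). Without knockout 4 it was 0.83 (adjusted p = 0.000722).

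Psph, the phosphatase that releases free serine in the last step, did not follow. It had 6.51, 7.61, 6.44 and 7.24 FPKM in knockout libraries 1 to 4 and 6.51, 7.03, 5.55 and 5.68 FPKM in WT libraries 1 to 4. The groups overlapped, and the log2 change of 0.15 ± 0.09 (SE) did not pass (limma adjusted p = 0.199). It was -0.10 after rescaling (adjusted p = 0.416). In WT ventricles the phosphatase transcript was thus the most abundant of the chain, at 6.19 FPKM against 2.58 FPKM for Psat1 and 1.95 FPKM for Phgdh. In knockout ventricles the means were 6.95, 6.42 and 4.45 FPKM in the same order of genes, and the libraries of the 3 genes overlapped.

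The serine hydroxymethyltransferases stayed close to WT as deposited. Shmt2, the mitochondrial enzyme, was the most abundant of the 10 genes in both groups, with 15.5, 20.2, 15.6 and 19.3 FPKM in knockout libraries 1 to 4 and 18.8, 17.8, 20.2 and 17.997 FPKM in WT libraries 1 to 4. The groups overlapped and the log2 change was -0.09 ± 0.10 (SE, limma adjusted p = 0.477). After rescaling the change was -0.35 and passed (adjusted p = 0.0182). Shmt1, the cytosolic enzyme, had 1.35, 2.15, 1.89 and 1.89 FPKM in knockout libraries 1 to 4 and 1.59, 2.65, 3.47 and 1.84 FPKM in WT libraries 1 to 4. Its groups overlapped too. The log2 change was -0.24 ± 0.18 (SE, limma adjusted p = 0.275), and rescaling left it short of the threshold at -0.43 (adjusted p = 0.0774).

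Among the 9 genes past the minimum, Mthfd2 of the mitochondrial pathway had the largest rise on the log2(FPKM + 1) scale. Its product is the dehydrogenase and cyclohydrolase that oxidizes the one-carbon unit on folate, and in textbook accounts it is high in embryonic and dividing cells and low in most adult tissues. The gene (chromosome 6, 83305704 to 83317604, minus strand) had 4.72, 4.88, 4.55 and 8.34 FPKM in knockout libraries 1 to 4 and 1.67, 1.55, 1.94 and 2.73 FPKM in WT libraries 1 to 4. Every knockout library was above every WT library, and knockout 4 was well above the rest. Means were 5.62 ± 1.82 FPKM in knockout and 1.97 ± 0.531 FPKM in WT (SD, n = 4 each), a ratio of 2.85. The log2 change was 1.14 ± 0.19 (SE, limma adjusted p = 0.000642). It was 0.92 after rescaling (adjusted p = 0.00273) and 0.96 without knockout 4 (adjusted p = 0.000464).

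Aldh1l2 moved the other way. It encodes the mitochondrial formyltetrahydrofolate dehydrogenase, which burns the one-carbon unit to carbon dioxide and yields NADPH (chromosome 10, 83487447 to 83534140, minus strand). The gene had 0.772, 2.05, 1.50001 and 3.09 FPKM in knockout libraries 1 to 4 and 5.76, 3.75, 5.84 and 6.08 FPKM in WT libraries 1 to 4. Every knockout library was below every WT library, although knockout 4 and WT 2 came close. Means were 1.85 ± 0.978 FPKM in knockout and 5.36 ± 1.08 FPKM in WT (SD, n = 4 each), so that WT was 2.89 times the knockout. The log2 change was -1.20 ± 0.24 (SE, limma adjusted p = 0.00204) and -1.41 after rescaling (adjusted p = 0.000934). Without knockout 4 it was -1.40 (adjusted p = 0.000539). Aldh1l2, Psat1, Psph, Shmt1, Shmt2 and Mthfd1 each overlap at least 1 gene on the opposite strand in GENCODE M21. On their own strand, Mthfd2 overlaps 1 gene and Mthfd1l overlaps 2. The kit marked strand, per the labels, but the sources used here do not state whether the counting used it, so these levels may hold reads of the overlapping genes.

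Mthfd1l, which releases formate from the mitochondrial folate pool, had 0.875, 1.71, 1.28 and 3.48 FPKM in knockout libraries 1 to 4 and 0.880, 0.435, 1.34 and 0.837 FPKM in WT libraries 1 to 4. The groups overlapped, with knockout 4 far above all other libraries. The log2 change of 0.54 ± 0.27 (SE) did not pass (limma adjusted p = 0.105). Without knockout 1 it was 0.71 and passed (adjusted p = 0.0399), and without knockout 4 it was 0.29 (adjusted p = 0.228). The cytosolic counterpart Mthfd1, which takes formate back up and interconverts the folate forms, had 8.32, 10.3, 10.6 and 11.2 FPKM in knockout libraries 1 to 4 and 11.1, 10.7, 11.9 and 11.2 FPKM in WT libraries 1 to 4. These groups overlapped as well. As deposited, the difference on the log2 scale was -0.15 ± 0.09 (SE, limma adjusted p = 0.189); after rescaling it was -0.41 and passed (adjusted p = 0.00531).

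Pycr1, the mitochondrial reductase of the last step of proline synthesis, was the scarcest of the genes (chromosome 11, 120635712 to 120643670, minus strand). It had 0.507, 1.62, 1.49 and 1.81 FPKM in knockout libraries 1 to 4 and 0.491, 0.108, 0.232 and 0.367 FPKM in WT libraries 1 to 4. Every knockout library was above every WT library, but knockout 1 only just. Means were 1.36 ± 0.582 FPKM in knockout and 0.299 ± 0.166 FPKM in WT (SD, n = 4 each), a ratio of 4.53, above the 2.85 of Mthfd2. The mean over all libraries was 0.8286 FPKM, under the minimum, so the main test did not include it. Tested among all 18740 genes with any signal, where 30.3% were called higher, its log2 difference was 0.83 ± 0.20 (SE) and passed (limma adjusted p = 0.0107). Of those genes, 41.6% were called in either direction. Rescaling in that fit, an alternative added after seeing the data, gave 0.72 (adjusted p = 0.0207), and without knockout 4 the change was 0.73 (adjusted p = 0.0255). The scale of FPKM + 1 understates the change of so low a gene.

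**Figure D2:**
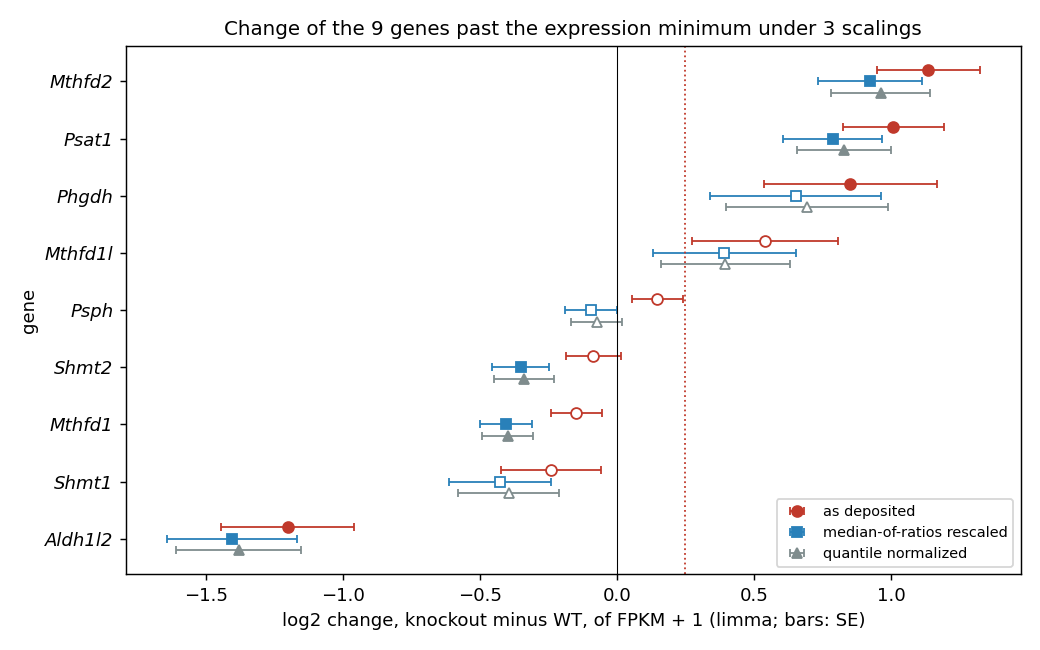
Log2 change of FPKM + 1, knockout minus WT (x axis), for the 9 genes past the expression minimum (y axis), as deposited (circles), after median-of-ratios rescaling (squares) and after quantile normalization (triangles); bars are SE, filled symbols passed an adjusted p under 0.05, and the dotted line is the median of all genes as deposited, 0.25. Mthfd2 and Psat1 stay higher and Aldh1l2 lower under all 3 scalings, Phgdh passes only as deposited, and Shmt2 and Mthfd1 pass, as lower, only after scaling.

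The deposited per-library values and the authors' own comparison gave the same directions for 9 of the genes and opposite ones for Psph. The authors' pooled FPKM are scaled otherwise. Med1 was 8.76 FPKM in knockout and 18.9 FPKM in WT there, against per-library means of 8.31 and 14.8 FPKM. Their fold changes are of FPKM with nothing added, so their sizes differ from those of FPKM + 1. Psph was -0.11 there and -0.10 in the rescaled fit, where Mthfd1 also passed as lower. Of the 10 genes in the authors' deposited table, 7 were significant, 5 of them higher in knockout and 2 lower, where 45.8% of the 12539 genes they tested were significant (23.1% higher and 22.8% lower). Aldh1l2 had a log2 fold change of -1.82 and Mthfd2 of 1.22 there, each with a q-value of 0.000211. Pycr1 had a log2 fold change of 1.90 (q = 0.000403), Psat1 of 1.03 (q = 0.000588) and Phgdh of 0.97 (q = 0.00793) in the authors' deposited table. The authors' deposited table also called Mthfd1l higher, at 0.78 (q = 0.0304), and Mthfd1 lower, at -0.44 (q = 0.0131). Shmt1, Shmt2 and Psph were not significant in the authors' deposited table (q = 0.0709, 0.0711 and 0.711).

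The order of the levels differed between the groups in 1 main respect. Shmt2 and then Mthfd1 led in both, each clear of the next gene in every library. In knockout ventricles Psph, Psat1, Mthfd2 and Phgdh followed, with overlapping libraries, and Aldh1l2, Mthfd1l, Shmt1 and Pycr1 came last, again overlapping. In WT ventricles Aldh1l2 came next to Psph, whose libraries it overlapped, and it was clear of Psat1, Shmt1, Mthfd2, Phgdh, Mthfd1l and Pycr1. The libraries also ranked alike across genes. Knockout 4 was the highest knockout library for 7 of the 10 genes and knockout 1 the lowest for 8, whereas over all tested genes these libraries were highest in 27.8% and lowest in 27.4% of cases. Among WT libraries, WT 2 was lowest for 7 of the 10 genes and for 27.9% of all tested genes. The summed level of the 10 genes was 45.5, 60.2, 52.6 and 73.8 FPKM in knockout libraries 1 to 4 and 52.0, 47.4, 56.2 and 50.6 FPKM in WT libraries 1 to 4, so the groups overlapped. The part of the atrial genes of knockout 4 in these levels was not tested.

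Other folate enzymes also split. Of 12 listed, 9 were tested, and 4 rose and 1 fell (2 and 1 after rescaling), with a median log2 change of 0.41. Among all genes tested, 44.9% rose and 16.4% fell (27% and 26.9% after rescaling). Fpgs, which traps folate in cells, rose by 0.66 on the log2 scale, and Tyms, thymidylate synthase, by 0.54, though Tyms did not pass after rescaling (adjusted p = 0.0696). Mthfd2l, the close relative of Mthfd2, was the one that fell, with a log2 change of -0.49 (limma adjusted p = 0.0047). Among 5 folate transport genes tested, Slc25a32, the mitochondrial folate carrier, rose by 0.39, and did not pass after rescaling. The receptor Folr2 and the carrier Slc19a1 changed by -0.69 and -0.47. After rescaling 0 rose and 3 fell, among them Folr2 (limma adjusted p = 0.00633) and Slc19a1 (limma adjusted p = 0.0144). The calls as deposited were fragile: the 1 higher call was lost without knockout 1, 3 or 4 or WT 2, 3 or 4. The 2 lower calls were both lost without knockout 1, 2 or 3 or WT 1 and with no expression minimum, and 1 was left without WT 2, 3 or 4.

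Genes around the exchange of one-carbon units with glycine and methionine were counted as well. In the glycine cleavage system, which feeds mitochondrial folate from glycine, 2 of 3 tested fell and 0 rose (2 and 0 after rescaling). Over all genes tested, 16.4% fell and 44.9% rose (26.9% and 27% after rescaling). Gldc of the same system averaged 0.184 FPKM in knockout and 0.0738 FPKM in WT, below the minimum, and was not tested. Dld, which also serves the pyruvate and oxoglutarate dehydrogenases, had 126.5 ± 13.3 FPKM in knockout and 274 ± 14.3 FPKM in WT (SD, n = 4 each, limma adjusted p = 1e-05), and Amt had a log2 change of -0.47. The count of cleavage genes that fell was 1 without knockout 1 or 3 or WT 3 or 4 and under the replicate block. Of 17 methionine cycle, transsulfuration and polyamine genes listed, 11 were tested. Of these, 2 rose and 2 fell (1 and 5 after rescaling), where 44.9% of all genes rose and 16.4% fell (27% and 26.9% after rescaling). The transsulfuration genes Cbs and Cth averaged 0.104 and 0.486 FPKM over all libraries, below the minimum, and were not in the main test. With no minimum, where 11.4% of genes were called lower, Cth had a log2 change of -0.40 (limma adjusted p = 0.0414). Mtr, the synthase that moves the one-carbon unit onto homocysteine, had 7.61 ± 0.907 FPKM in knockout and 17.1 ± 4.32 FPKM in WT (SD, n = 4 each, limma adjusted p = 0.000611). Mat2a changed by -0.36 on the log2 scale, while the spermine synthase Sms and the hydrolase gene Ahcy changed by 0.81 and 0.29. Ahcy no longer passed after rescaling (adjusted p = 0.811).

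Nucleotide synthesis, a main use of one-carbon units, showed no common direction. Of 13 purine genes, 4 rose and 3 fell (1 and 7 after rescaling), and their median log2 change was 0.01. Only 2 rose without knockout 3 or WT 2, 3 or 4. Among all genes tested, 44.9% rose and 16.4% fell (27% and 26.9% after rescaling). Adsl, Pfas and Ppat of the purine chain had log2 changes of -0.84, -0.66 and -0.45, and Adss, which makes the AMP precursor, one of 0.61. Of 11 pyrimidine and thymidylate genes, 5 rose and 1 fell (3 and 1 after rescaling), and 2 fell without knockout 4. Ctps, the CTP synthase, rose to 65.1 ± 5.49 FPKM in knockout, against 26.02 ± 3.42 FPKM in WT (SD, n = 4 each, limma adjusted p = 1.12e-05). Tk2 and Umps rose by 0.75 and 0.63, and Dhodh changed by -0.98. Of 8 cell cycle markers, Pcna alone was called, with a log2 change of 1.002. The 8 markers summed to between 103.9 and 128 FPKM in knockout and between 44.8 and 86.3 FPKM in WT, but Pcna made up most of that. The other 7 overlapped between the groups, with sums of 8.50 to 29.9 FPKM in knockout and 10.1 to 34.2 FPKM in WT.

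Around proline and glutamate, 3 of 14 genes rose and 6 fell (1 and 7 after rescaling), and 1 rose without WT 4. Among all genes tested, 44.9% rose and 16.4% fell (27% and 26.9% after rescaling). Prodh, which breaks proline down in mitochondria, had 4.10, 2.81, 2.20 and 4.78 FPKM in knockout libraries 1 to 4 and 11.7, 19.4, 20.4 and 19.3 FPKM in WT libraries 1 to 4. The groups were far apart, and the log2 difference was -2.07 ± 0.22 (SE, limma adjusted p = 4.6e-05). The alanine aminotransferases Gpt2 and Gpt fell by 2.46 and 2.29 on the log2 scale, and the mitochondrial aspartate aminotransferase Got2 by 0.87. Aldh18a1, the first enzyme of proline synthesis from glutamate, averaged 6.97 ± 3.14 FPKM in knockout and 3.57 ± 0.639 FPKM in WT (SD, n = 4 each); the difference of 0.71 on the log2 scale missed the threshold (limma adjusted p = 0.0668).

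Genes that use serine or glycine and transporters of neutral amino acids were counted next. Of 8 serine and glycine use genes, 4 rose and 2 fell (4 and 3 after rescaling), and 1 fell without knockout 1, 2 or 3 or WT 1, 3 or 4. Sptlc2 and Sptlc1, which join serine to a fatty acid in sphingolipid synthesis, rose by 1.07 and 1.02 on the log2 scale. Ptdss1, which makes phosphatidylserine, rose by 0.98, and Srr, serine racemase, by 0.83. The 2 that fell were Gcat and Ptdss2, the other phosphatidylserine synthase gene, with log2 changes of -0.53 and -0.39 (limma adjusted p = 0.0485 and 0.00347). After rescaling they were -0.72 and -0.65 (limma adjusted p = 0.0142 and 0.000355). Of 11 neutral amino acid transporters, 8 rose and none fell (5 and 1 after rescaling), with a median log2 change of 0.77. Beside both lists, 44.9% of all genes tested rose and 16.4% fell (27% and 26.9% after rescaling), with a median of 0.25. Slc1a4, a serine and alanine exchanger, had 2.18, 4.61, 4.28 and 5.65 FPKM in knockout libraries 1 to 4 and 0.865, 0.510, 0.960 and 0.783 FPKM in WT libraries 1 to 4. No library overlapped, and the log2 change was 1.498 ± 0.21 (SE, limma adjusted p = 0.000264). Slc7a5, Slc3a2 and Slc38a4 rose by 2.57, 1.34 and 1.28.

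**Figure D3:**
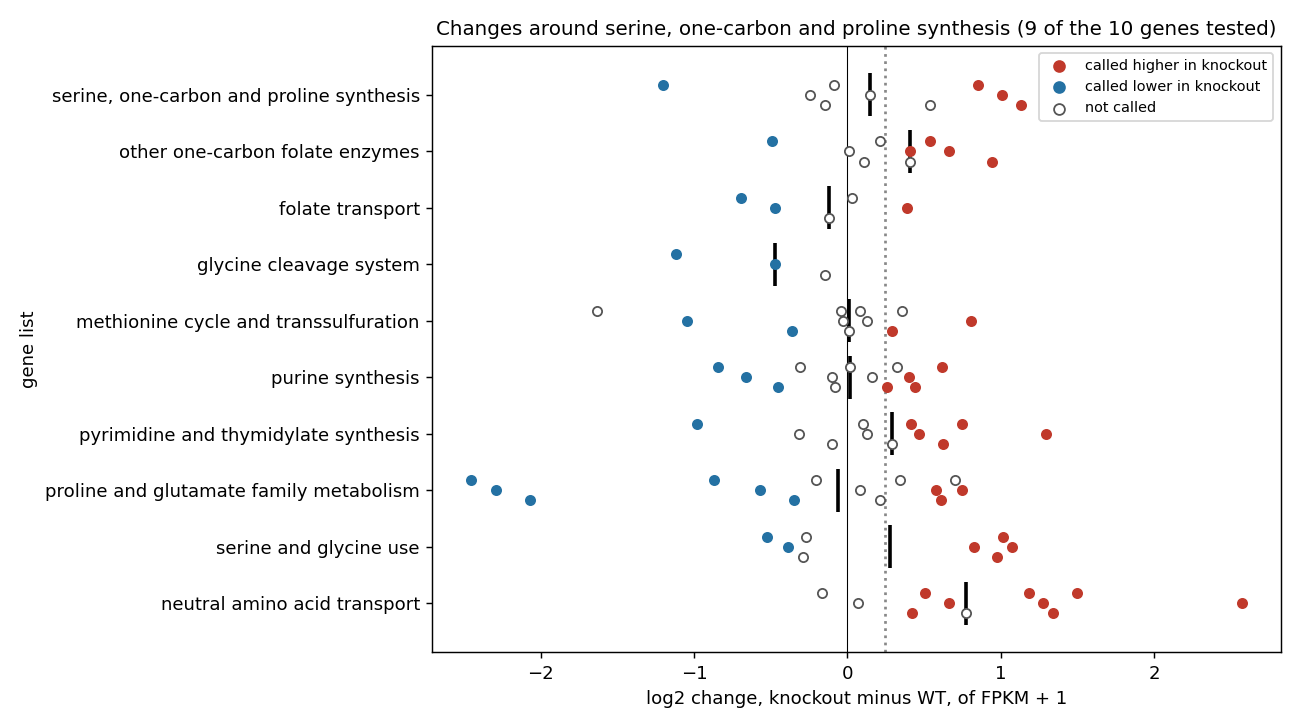
Log2 change of FPKM + 1, knockout minus WT (x axis), of every tested gene in 10 lists (y axis); red points were called higher in knockout, blue lower and open points were not called, at an adjusted p under 0.05. Black bars are list medians and the dotted line is the median of all genes, 0.25. Of the lists plotted, the amino acid transporters have the highest median, 0.77, and the glycine cleavage genes the lowest, -0.47.

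Regulators of the pathway were also measured. Of 15 transcription factor and eIF2 kinase genes, 9 rose and none fell (6 and 2 after rescaling), and 1 fell without knockout 2 or WT 2. Among all genes tested, 44.9% rose and 16.4% fell (27% and 26.9% after rescaling). The median log2 change of the list was 0.31, against 0.25 for all genes, and 0.07 after rescaling, against 0.01. Atf4 had 81.6, 112, 90.6 and 96.2 FPKM in knockout libraries 1 to 4 and 48.1, 57.5, 51.7 and 50.6 FPKM in WT libraries 1 to 4. Every knockout library was above every WT library, and the log2 difference was 0.85 ± 0.10 (SE, limma adjusted p = 0.000108) and of 0.58 after rescaling (adjusted p = 0.00218). Myc, Nfe2l2 and the kinase gene Eif2ak3 rose by 0.91, 0.76 and 0.66, though Myc did not pass after rescaling (adjusted p = 0.0504). Of 9 further ATF4 target genes tested, 5 rose and 2 fell (5 and 2 after rescaling), beside the same shares of all genes. Gdf15, Atf3, Nupr1 and Ppp1r15a rose by 2.998, 2.76, 2.34 and 2.24, while Chac1 had 1.80 ± 0.776 FPKM in knockout and 5.29 ± 1.95 FPKM in WT (SD, n = 4 each, limma adjusted p = 0.00233). Vldlr, another target, changed by -1.23 on the log2 scale. Chac1 and Vldlr are named because they are the 2 that fell. FPKM measure transcripts, and ATF4 is controlled largely at translation.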

How the data were processed

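The authors deposited FPKM per gene for 8 libraries, per the file headers, made with TopHat (version 1.0.0), Cufflinks and Cuffdiff on mm10, per the submitters' processing notes. The sources used here name no gene annotation or strand setting. From the authors' deposited table, pooled FPKM, log2 fold changes and q-values (with their p-values) were taken where named, and its test statistic, a score, was not used. In 23847 rows, 312 hold no number and 1 (Cacna2d1) failed in a library; these were left out. The value 0.001, the floor of the file, was set to 0. FPKM fall when other genes take more of the library.

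Limma (version 3.58.1, R 4.3.3) with an intensity trend was run on log2(FPKM + 1) for genes averaging 1 FPKM or more, two-sided, with Benjamini-Hochberg adjustment over all of them and a threshold of 0.05. It was tested on simulated data. Log2 changes are knockout minus WT. Exact permutation used scipy (version 1.17.1). Titles gave the groups and the replicate numbers. The genes and lists were chosen with earlier results of these data known. Named in the lists were up to 4 called genes by size of change, or the 2 most abundant; other named genes were chosen after their values were seen. A gene that this rule names is not reported here. Alternatives were pseudocount 0.1, no minimum or one of 5 FPKM, rescaling, quantile normalization, no trend, robust variances, array weights, a replicate block and each library left out. Deposited loci count from 0 and are printed from 1.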

Additional observations from a re-analysis of the deposited data

Results flagged for a closer look

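A library far from the other 3 of its group, relative to the range of the group, was found in 14 of 150 groups of 4 checked, over 75 genes, and chance flags about 1 in 20. Of the synthesis genes, Phgdh was 8.14 FPKM in knockout 4 and 2.73 to 3.50 FPKM in the other knockout libraries. Mthfd2 was 8.34 FPKM in knockout 4 and 4.55 to 4.88 FPKM in the others. Aldh1l2 was 3.75 FPKM in WT 2 and 5.76 to 6.08 FPKM in the other WT libraries.

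In knockout 4 the atrial genes Myl7 (726 FPKM), Myl4 (781 FPKM) and Sln (188 FPKM) and the mural gene Pdgfrb (31.4 FPKM) were also far above the other knockout libraries, which reached at most 61.6, 81.7, 18.6 and 28.5 FPKM. Elsewhere in the knockout group, Slc38a4 was 21.7 FPKM in knockout 1, Gpt 3.24 FPKM in knockout 2 and Ryr2 14.0 FPKM in knockout 3, against 15.2 to 16.1, 2.15 to 2.31 and 22.2 to 22.8 FPKM in the others. Among WT libraries, WT 1 had 14.0 FPKM of Folr2 and 11.7 FPKM of Prodh, WT 2 had 11.1 FPKM of Ahcy and WT 4 had 64.2 FPKM of Abcc9. The other WT libraries had 6.83 to 8.05, 19.3 to 20.4, 13.5 to 13.7 and 74.5 to 76.6 FPKM of these genes.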

How the results depend on the processing

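Psat1, Mthfd2, Aldh1l2 and Med1 kept their direction and their call under each alternative that tested them. Their log2 changes ran from 0.79 to 1.23, from 0.92 to 1.45, from -1.61 to -0.99 and from -0.998 to -0.68. Phgdh passed in 7 of 16 (adjusted p from 0.0285 to 0.108), and its change ran from 0.57 to 1.15. Psph reversed to -0.10 after rescaling and to -0.074 after quantile normalization; both settings centre the libraries by construction. Over all genes, rescaling gave 3236 higher and 3223 lower and quantile normalization 3437 higher and 3067 lower, against 5371 and 1964 as deposited. The same settings gave 3 lower calls among the synthesis genes instead of 1. With a minimum of 5 FPKM none was called higher and none lower, with 0 and 0 calls, because the 4 called genes have lower means and were not tested. Leaving out 1 library gave 4888 to 5263 genes higher, 1787 to 1957 lower, and 2 to 4 synthesis genes higher and 1 lower. Pycr1, tested with no minimum, passed without each library in turn (adjusted p from 0.000422 to 0.0323). No pairing of libraries by replicate number was seen: deviations of same-numbered libraries correlated at -0.04 to 0.14, and not every library matched its own number best. With so few libraries this check cannot exclude a pairing. With the replicate block 5089 genes were higher and 1867 lower, and Phgdh did not pass (adjusted p = 0.0567). Absolute depth is unknown, which limits what can be said of genes near 1 FPKM.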

Other observations

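The levels of Mthfd2 and Aldh1l2, whose products act in sequence on mitochondrial folate, were also read as a ratio of FPKM within each library. This pair was chosen after the values were seen, and the ratio carries no test. Mthfd2 over Aldh1l2 was 6.11, 2.38, 3.04 and 2.70 in knockout libraries 1 to 4 and 0.290, 0.415, 0.332 and 0.450 in WT libraries 1 to 4. Knockout 4, the library with the highest Mthfd2, did not have the highest ratio, since its Aldh1l2 was the highest of its group as well. Shmt2 over Shmt1, the mitochondrial over the cytosolic hydroxymethyltransferase, overlapped between the groups, at 8.27 to 11.5 in knockout and 5.82 to 11.8 in WT.

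Genes whose levels varied most like those of a synthesis gene were sought among 8279 genes averaging 5 FPKM or more, after the mean of each group was taken off. For Phgdh they were Cap1, Flna, Pde4b, Srp72 and Tgfbr1, and for Mthfd2 they were Snora65, Usp1, Zfp260, Sgce and Isy1. Likeness was the correlation of log2(FPKM + 1) over the 8 libraries, which was 0.95 to 0.98 for these genes. With so many genes and so few libraries, and with knockout 4 the highest for both enzymes, such values describe these libraries alone.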
